A study of Mus musculus with 6 samples.

Results

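The enzymes described here belong to 5 classes that oxidise or conjugate drugs, hormones, lipids and aldehydes: cytochromes P450 (Cyp), glutathione S-transferases (Gst), UDP-glycosyltransferases (Ugt), aldehyde dehydrogenases (Aldh) and carboxylesterases (Ces). Members were all probe sets that the platform annotation assigns to exactly 1 gene whose symbol starts with Cyp or Ces and a digit, or with Gst, Ugt or Aldh. The cholesterol synthesis gene Cyp51 was left out. This gave 95 probe sets for 72 genes, out of 12488 probe sets on the array and 8251 genes named by probe sets with 1 gene. The cytochromes P450 held 46 probe sets (39 genes), the glutathione S-transferases 22 (15 genes), the aldehyde dehydrogenases 18 (10 genes), the carboxylesterases 6 (5 genes) and the UDP-glycosyltransferases 3 (3 genes).

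RNA came from thoracic mammary glands of 16-week-old virgin F1 CF-1/FVB mice. One group was transgenic and overexpressed LH (luteinizing hormone), which the pituitary secretes and which drives steroid synthesis in the ovary, and the other was wild type. Each group held 3 Affymetrix arrays, each with pooled RNA of 3 mice, so that 9 mice stood behind a group. The labels do not name the promoter or cell type that drives the transgene, and a pool hides the spread between its mice. Signals are intensities on a linear scale, given as the value on each array or as mean ± SD over the 3 arrays of a group. Each log2 difference subtracts the wild type mean from the LH transgenic mean after taking log2(signal + 80.0), which understates the change of dim genes. A probe set was called at an adjusted p under 0.05, from limma over all 7453 probe sets tested with Benjamini-Hochberg adjustment. Of these, 21.3% were called, 10.5% higher and 10.8% lower in LH transgenic glands.

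Cytochromes P450 are haem enzymes of the endoplasmic reticulum or mitochondria that insert oxygen into a substrate. Glutathione S-transferases couple electrophilic molecules to glutathione, UDP-glycosyltransferases add a sugar, aldehyde dehydrogenases oxidise aldehydes to acids, and carboxylesterases cleave esters. The liver holds most of these enzymes. In the mammary gland, fat cells, epithelium and stroma each express some of them, and they act there on lipids, retinoids, steroids and products of lipid peroxidation.

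The table held no detection calls, so 336.0, the 40th percentile of the mean signals, was set as the limit, and a signal at or over it was taken as above background. Of 72 values of 12 genes not expected in this tissue, such as Y-linked and photoreceptor genes, 1 reached that limit. By this measure 42 of the 95 enzyme probe sets (33 genes) had a mean above background and were tested, and 36 of the 42 were above it on all 6 arrays. The other 53 were not tested, and 49 of them lay below the limit on every array. Tested were 10 of 46 Cyp, 18 of 22 Gst, 11 of 18 Aldh, 3 of 6 Ces and 0 of 3 Ugt probe sets. Most P450 genes of these arrays therefore had no mean signal above the limit, while most Gst genes did. Among tested members, 4 had a mean below the limit in 1 of the groups (Aldh1a3 in LH transgenic, Gsta3 in LH transgenic, Cyp2c38 in wild type, and probe set 100631_r_at of Gstm5 in wild type).

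**Figure D1:**
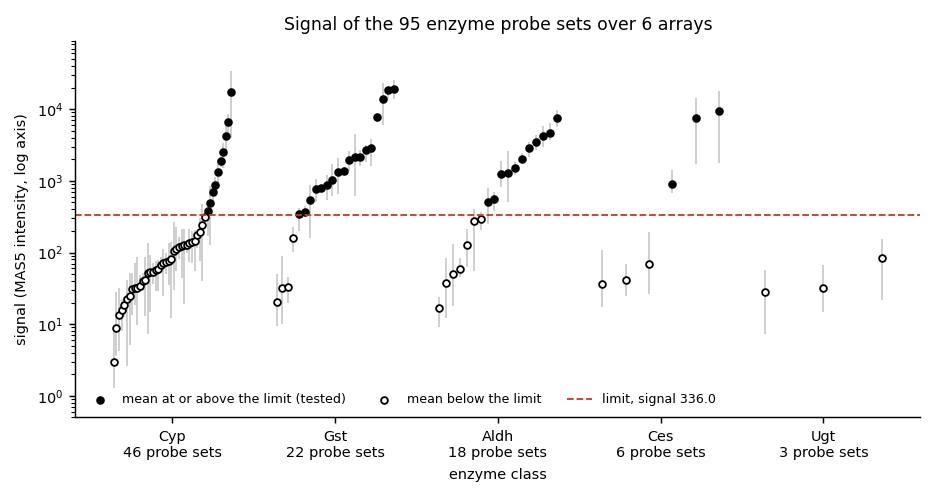
Signal of the 95 enzyme probe sets by class on a log axis; each point is the mean over 6 arrays, filled where the mean reached the limit of 336.0 (dashed line) and open below it, and grey lines run from the lowest to the highest array. The Cyp class lies mostly below the limit, with 36 of 46 probe sets open, and the Gst class mostly above it, with 18 of 22 filled.

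Of the 42 tested enzyme probe sets, 14 (33.3%) fell and 2 (4.76%) rose in LH transgenic glands, beside 10.8% lower and 10.5% higher over all probe sets. The 14 belong to 11 genes: Ces1d, Gstm2, Cyp2e1, Aldh1a7, Gstz1, Gstt1, Cyp4b1, Aldh1a3, Aldh2, Gstm1 and Cyp4v3. The 2 that rose are Cyp1b1 and a dim probe set of Gstm5. The median difference of the 42 was -0.29, against 0.02 over all probe sets. At least 2-fold decreases among called probe sets numbered 8 of 42, beside 3.81% of all probe sets. All LH transgenic signals lay below all wild type signals for 18 members and above them for 6, where the shares over all probe sets were 19.8% and 20.6%.

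**Figure D2:**
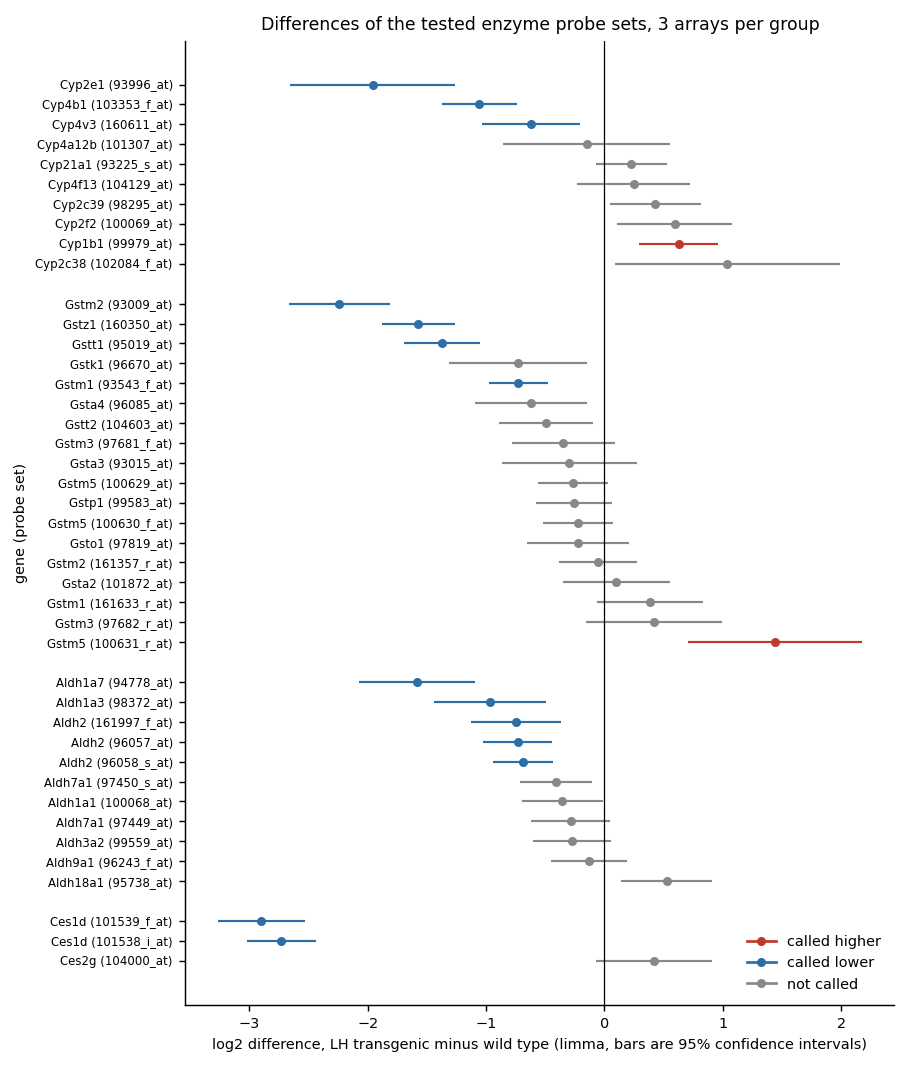
Log2 difference (LH transgenic minus wild type, horizontal axis) of each of the 42 tested enzyme probe sets with its 95% confidence interval from limma, grouped by class; blue was called lower, red higher and grey not called. Ces1d lies farthest to the left at -2.90 and -2.73, and a Gstm5 probe set farthest to the right at 1.44.

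Mammary tissue is a mixture, and markers of its cell types moved in the same comparison. The summed signal of 10 fat cell markers was 85944 to 99233 on the LH transgenic arrays and 176307 to 209387 on the wild type arrays, and 9 of the 10 fell (median -1.38), among them Adipoq, Lpl and Cebpa. Skeletal muscle markers summed to 19089 and 22447 in LH transgenic pools 1 and 2 and to 81788 in LH transgenic pool 3, against 88877 to 102186 in wild type pools, and 4 of 10 fell. Of 9 luminal and alveolar markers, 6 rose, including Csn1s1, Csn2 and Wap, and of 6 macrophage markers 4 rose, including Lyz2, Ctss and C1qa. Of 6 endothelial markers 5 fell and of 6 fibroblast markers 4 fell. Over all probe sets 10.8% fell and 10.5% rose. The 4 hepatocyte markers on the array, Alb among them, had means below the limit, with a highest signal of 367.7. Of the 4 basal markers on the array, named after their values were seen, the keratins Krt14 and Krt5 were also below it. The other basal markers were tested: Acta2 rose by 0.66, and Trp63 differed by -0.19 and was not called. In bulk RNA, fewer cells of a type and less RNA per cell cannot be told apart. Of 8 B and T cell markers on the array 4 were tested and none was called. The part of these cell types in the enzyme results was not tested, other than by the muscle level and the B and T cell level as covariates.

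The largest decrease was that of Ces1d, which encodes an esterase of liver and fat cells that hydrolyses triglyceride and xenobiotic esters. Its brighter probe set, 101539_f_at, had signals of 2061, 1761 and 2653 in LH transgenic pools, against 16577, 14686 and 18130 in wild type pools. Every LH transgenic pool lay below every wild type pool by a wide margin. The difference was -2.90 (SE 0.16, adjusted p 3.37e-05), the lowest of all 7453 tested probe sets. The second probe set of Ces1d, 101538_i_at, had 1919, 1735 and 2034 in LH transgenic pools, against 13007, 11818 and 14281 in wild type pools. Its difference of -2.73 (SE 0.13) shows the same change, although both probe sets carry name suffixes that Affymetrix used for probes that may be shared with related sequences, and Ces1d lies within a row of 8 neighbouring Ces1 genes on chromosome 8. Of the LH transgenic pools, pool 3 had the highest signal on both probe sets, and also the highest muscle marker sum. That sum was 81788, against 88877 to 102186 in wild type pools. Apart from the fit with the muscle covariate, a link between them was not tested. Ces2g, an esterase of another subfamily, averaged 1056 ± 337 in LH transgenic and 749 ± 78.1 in wild type glands and was not called (0.42, 95% interval -0.07 to 0.91). Ces1c, Ces1g and Ces3a had no signal above 190.3.

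Among cytochromes P450, 3 of 10 tested genes fell and 1 rose, beside 10.8% lower and 10.5% higher over all probe sets. Cyp2e1, which oxidises ethanol, acetone and small solvents and is abundant in liver and fat, had signals of 3955, 8647 and 9671 in LH transgenic pools, against 34432, 27671 and 20873 in wild type pools. The groups did not overlap, but both spread widely, and LH transgenic pool 1 lay well under the other LH transgenic pools. The difference was -1.96 (SE 0.31, adjusted p 0.00272). With the muscle marker level as a covariate it was -1.34 and was not called (adjusted p 0.0587). In that fit 10.6% of all probe sets were called, against 21.3% without the covariate. Cyp4b1, an enzyme that hydroxylates fatty acids, averaged 2682 ± 398 in LH transgenic and 5628 ± 291 in wild type glands (-1.06, adjusted p 0.00132). A dimmer probe set that the annotation shares between Cyp4b1 and Cyp4b1-ps2 was left out by the rule. It averaged 612 ± 157 and 946 ± 49.5 in LH transgenic and wild type glands and was not called (-0.59, adjusted p 0.0554). Cyp4v3, an omega-hydroxylase of fatty acids, averaged 1975 ± 500 and 3029 ± 311 in LH transgenic and wild type glands (-0.62, adjusted p 0.0399), but 8 of 22 other settings did not call it.

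Cyp1b1, an extrahepatic P450 that hydroxylates estradiol and polycyclic hydrocarbons, was the bright member that rose. It had signals of 8043, 7099 and 8643 in LH transgenic pools, against 4753, 4537 and 6107 in wild type pools. The lowest LH transgenic pool was above the highest wild type pool, with a difference of 0.63 (SE 0.15, adjusted p 0.0154), which was -0.055 when arrays were scaled to the bacterial hybridisation controls. The call was lost without wild type pool 1 (adjusted p 0.063), without wild type pool 2 (0.0604) and without LH transgenic pool 1 (0.0518), and with the muscle covariate, where the difference was 0.72 (0.0642). Ahr, the receptor that induces Cyp1 genes, differed by 0.03 and was not called, a gene chosen after its values were seen. The other Cyp1 genes, Cyp1a1 and Cyp1a2, lay below the limit on every array. A second probe set of Cyp1b1, 161368_r_at, had a highest signal of 8.4 and gave no measurement.

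The RefSeq windows of 250 bases before to 50 after the transcription start (build GRCm38.p6) are given for 4 genes. Cyp2e1 and Cyp1b1 were taken as the bright P450 genes with opposite changes. Gstm2 and Gstm1 were taken as neighbours whose brighter probe sets fell by different amounts, while their dim probe sets were not called. RefSeq windows were found for 56 of the 72 genes (64 windows). Capitals mark the motifs searched on both strands, which are GCGTG (the core bound by the aryl hydrocarbon receptor with its partner), TGACNNNGC (the antioxidant response core), AGGTCA (the nuclear receptor hexamer, whose other strand shares TGAC with the antioxidant core) and TATAAA (the TATA box).
Cyp2e1, chr7:140763569-140763868, plus strand: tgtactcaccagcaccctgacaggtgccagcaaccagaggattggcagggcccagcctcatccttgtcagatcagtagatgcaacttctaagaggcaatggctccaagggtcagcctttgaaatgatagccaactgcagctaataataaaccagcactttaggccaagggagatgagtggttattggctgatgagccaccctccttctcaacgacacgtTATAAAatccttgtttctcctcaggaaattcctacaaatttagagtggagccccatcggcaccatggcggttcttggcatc
Cyp1b1, chr17:79715012-79715311, minus strand: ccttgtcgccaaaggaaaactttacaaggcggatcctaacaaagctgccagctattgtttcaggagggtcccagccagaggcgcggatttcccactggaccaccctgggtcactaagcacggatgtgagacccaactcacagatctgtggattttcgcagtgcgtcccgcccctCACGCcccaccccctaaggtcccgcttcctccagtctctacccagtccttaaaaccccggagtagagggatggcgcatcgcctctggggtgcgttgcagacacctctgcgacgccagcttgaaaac
Gstm2, chr3:107986371-107986670, minus strand: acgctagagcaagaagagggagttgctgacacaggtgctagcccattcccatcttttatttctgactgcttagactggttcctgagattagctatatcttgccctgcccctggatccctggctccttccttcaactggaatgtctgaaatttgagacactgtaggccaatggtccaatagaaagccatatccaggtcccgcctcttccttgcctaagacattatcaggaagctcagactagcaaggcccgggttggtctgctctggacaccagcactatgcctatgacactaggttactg
Gstm1, chr3:108017769-108018068, minus strand: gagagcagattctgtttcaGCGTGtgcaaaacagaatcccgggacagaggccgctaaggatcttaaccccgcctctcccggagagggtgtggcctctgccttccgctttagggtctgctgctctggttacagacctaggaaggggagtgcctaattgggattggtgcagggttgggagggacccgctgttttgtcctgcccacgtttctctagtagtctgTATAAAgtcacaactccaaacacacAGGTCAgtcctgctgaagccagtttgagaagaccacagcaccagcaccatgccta
Cyp2e1 holds 1 TATAAA, Cyp1b1 holds 1 GCGTG on the other strand, the Gstm1 window shown holds 1 aryl hydrocarbon receptor core, 1 TATA box and 1 nuclear receptor hexamer, and the Gstm2 window has none of the 4. A second, overlapping RefSeq window of Gstm1 holds the receptor core alone. GCGTG is found in 23.4% of the enzyme windows and in 32.4% of all 32851 windows, TGACNNNGC in 9.38% and 12.4%, AGGTCA in 23.4% and 16.3%, and TATAAA in 32.8% and 13.6%. These matches describe letters in a short window and say nothing of binding.

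The remaining tested P450 genes were not called. Beyond the brightest uncalled members of each class, the other tested members are named here and in the other classes by a choice made after their values were seen. Cyp21a1, the steroid 21-hydroxylase of the adrenal gland, averaged 2058 ± 98.0 in LH transgenic and 1749 ± 170 in wild type glands (0.23, 95% interval -0.07 to 0.53). Cyp2f2, a P450 of lung club cells, averaged 1625 ± 382 and 1052.5 ± 265 in LH transgenic and wild type glands (0.59, adjusted p 0.0795). Cyp2c39, of a family that oxidises retinoic and arachidonic acid, averaged 1024 ± 120 and 743 ± 116 in LH transgenic and wild type glands (0.43, adjusted p 0.106). Cyp4f13, Cyp2c38 and Cyp4a12b differed by 0.25, 1.04 and -0.15. Of Cyp2c38, wild type pool 3 had 655.8 against 125.6 and 203.9 in the other wild type pools, so that it overlapped the LH transgenic pools.

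Enzymes of steroid synthesis and of retinoic acid and vitamin D breakdown were among the 36 Cyp probe sets that were not tested. Cyp11a1 and Cyp17a1, which start steroid synthesis and make androgens, were below the limit on every array, as were the retinoic acid hydroxylase Cyp26a1, the bile acid enzymes Cyp7a1, Cyp7b1 and Cyp8b1, and the vitamin D 1-hydroxylase Cyp27b1. Cyp24a1, the vitamin D 24-hydroxylase, reached 477.6 on 1 array and passed the limit on 2, and Cyp2a12 passed it on 2. The drug-metabolising genes of the Cyp2b, Cyp2d, Cyp2j and Cyp3a families, with Cyp2c29, Cyp2c70, Cyp2s1, Cyp4a10 and Cyp4a14, stayed below it on all 6 arrays. Under the limit, Cyp2c29 had 206, 216 and 166 in LH transgenic pools, against 19.2, 78.5 and 66 in wild type pools. Cyp2b10, Cyp2d26 and Cyp26a1 had all LH transgenic signals below all wild type signals. These genes and Cyp2c29 were named after their values were seen, and all their signals were below the limit. Of the tested probe sets, which are brighter, 19.8% had LH transgenic signals wholly below and 20.6% wholly above. With no filter on dim probe sets, 2 of 46 Cyp probe sets were called higher and 2 lower, where 10.8% of all probe sets were called.

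Glutathione S-transferases held the largest number of tested probe sets. Of 18 tested probe sets, 4 fell and 1 rose, so that 27.8% were called, beside 21.3% of all probe sets. Differences below 0 numbered 14 (median -0.28), where 47.2% of all probe sets were below 0. Gstz1, a zeta enzyme that isomerises maleylacetoacetate in tyrosine breakdown, had signals of 7869, 7039 and 6080.4 in LH transgenic pools, against 19322, 23464 and 20033 in wild type pools. All LH transgenic pools were under the wild type pools, with a difference of -1.57 (SE 0.14, adjusted p 0.000221). Gstt1, a theta enzyme that acts on small halogenated compounds, averaged 707 ± 77.9 in LH transgenic and 1954 ± 129 in wild type glands (-1.37, adjusted p 0.000447). Its near neighbour on chromosome 10, Gstt2, averaged 1638 ± 386 in LH transgenic and 2314 ± 262 in wild type glands and was not called (-0.50, adjusted p 0.0741). Gstp1, the pi enzyme typical of ducts and stroma outside the liver, averaged 16803 ± 3178 in LH transgenic and 19881 ± 846 in wild type glands, with a difference of -0.26 whose 95% interval ran from -0.58 to 0.07. The kappa enzyme Gstk1 had 3410.3 in LH transgenic pool 1 but 1662 and 1599.8 in pools 2 and 3, against 3711, 3061 and 3852 in wild type pools (-0.73, adjusted p 0.0735). Without LH transgenic pool 1 its difference was -1.07 and was called (adjusted p 0.00586). The alpha enzymes Gsta4, Gsta3 and Gsta2 differed by -0.62, -0.30 and 0.10, the omega enzyme Gsto1 by -0.22, and none was called. Gsta1 and Gstm6 lay below the limit.

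**Figure D3:**
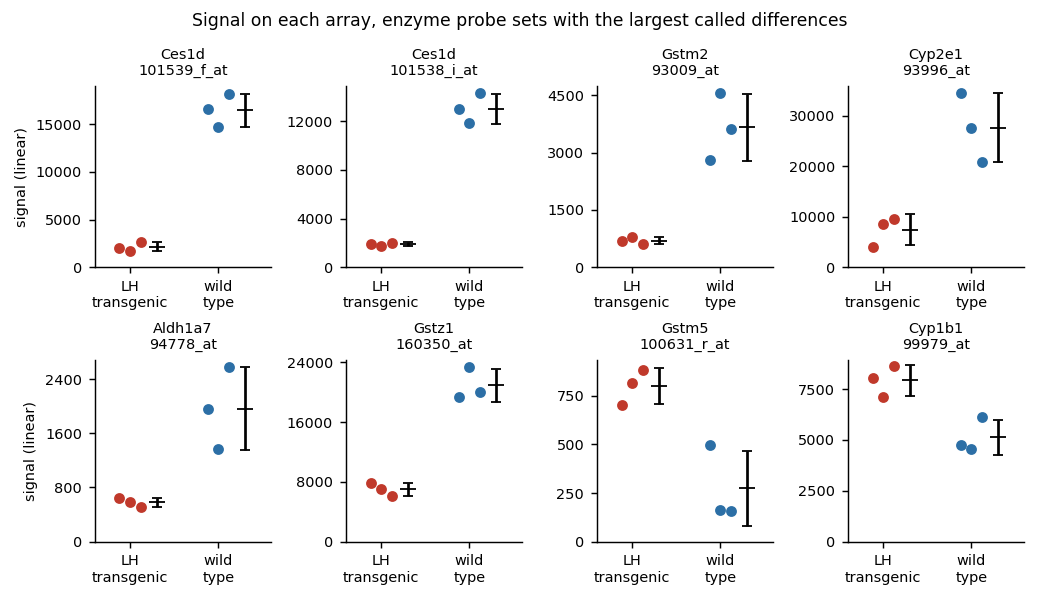
Signal on each array (linear axes starting at 0) of the 8 enzyme probe sets with the largest called decreases and increases, LH transgenic in red and wild type in blue; black bars are mean ± SD of 3 arrays. In all 8 panels the groups do not overlap, and for Gstm5 wild type pool 1 (498.1) stands above the other wild type pools (162.7 and 160.0).

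The mu genes Gstm5, Gstm7, Gstm6, Gstm3, Gstm2, Gstm1 and Gstm4 follow one another on chromosome 3, and their sequences are alike, so probe sets may share targets. Gstm2 had signals of 701, 795 and 606 in LH transgenic pools, against 2803, 4548 and 3619 in wild type pools, by probe set 93009_at. The groups were far apart, with a difference of -2.24 (SE 0.19, adjusted p 0.000199). A second Gstm2 probe set, 161357_r_at, averaged 767 ± 53.2 in LH transgenic and 799 ± 38.3 in wild type glands, a difference of -0.055. The probe sets of Gstm2 therefore disagree. Gstm1, by its bright probe set 93543_f_at, averaged 14186 ± 504 in LH transgenic and 23610.3 ± 1899 in wild type glands (-0.73, adjusted p 0.00227), whereas its dim probe set 161633_r_at differed by 0.39 and was not called. For Gstm3 the probe sets differed by -0.35 and 0.42, neither called.

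The increase of Gstm5 rests on 1 of its 3 tested probe sets. Probe set 100631_r_at had 701, 817 and 884 in LH transgenic pools, against 498, 163 and 160.0 in wild type pools, with only wild type pool 1 above the limit in that group. The difference was 1.44 (SE 0.33, adjusted p 0.0132), and the call was lost without wild type pool 3 (adjusted p 0.0529) and with the muscle covariate (1.59, adjusted p 0.0809). The brighter probe sets of Gstm5, 100630_f_at and 100629_at, averaged 7107 ± 790 and 1235 ± 60.8 in LH transgenic glands, against 8313 ± 726 and 1499 ± 81.2 in wild type glands, with differences of -0.23 and -0.26, and were not called. The suffix _r_at marks probe sets for which Affymetrix relaxed its probe selection rules. Of 314 tested probe sets of this kind on the array, 53 were called higher and 9 lower, against 781 and 805 over all probe sets. Leaving them out, an alternative chosen after the data were seen, left 4 Gst probe sets called, all lower.

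**Figure D4:**
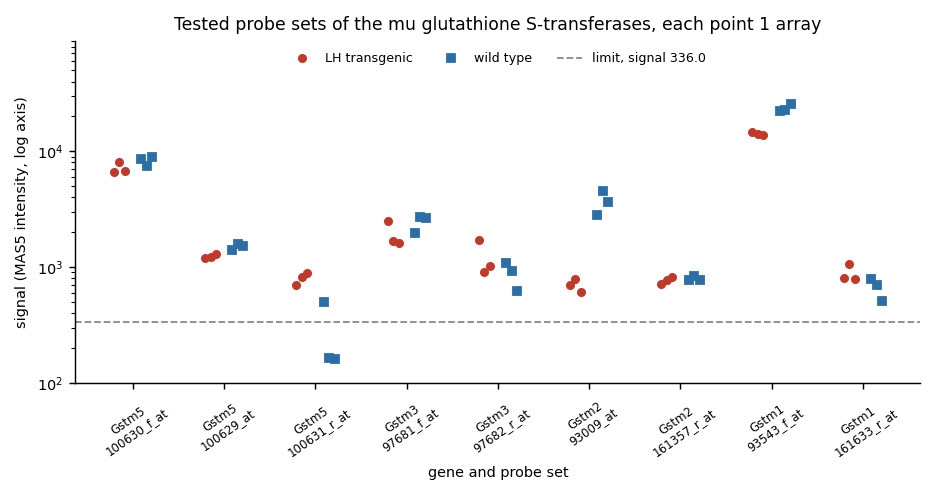
Signal (log axis) of the 9 tested probe sets of the mu glutathione S-transferases, each point 1 array, LH transgenic as red circles and wild type as blue squares; the dashed line is the limit of 336.0. The 93009_at probe set of Gstm2 and the 93543_f_at probe set of Gstm1 are lower in LH transgenic pools, and the dim _r_at probe sets of the same genes were not called.

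Of the aldehyde dehydrogenases, 5 of 11 tested probe sets, from 3 genes, fell and none rose, and 10 of 11 had differences below 0 (median -0.41). Over all probe sets 10.8% fell, 10.5% rose and 47.2% had differences below 0. At an unadjusted p under 0.05, 8 of the 11 passed, beside 34.8% of all probe sets. Aldh1a7, a cytosolic enzyme next to the retinal dehydrogenase gene Aldh1a1 on chromosome 19, had signals of 647, 593 and 512 in LH transgenic pools, against 1952, 1365 and 2578 in wild type pools. The wild type pools varied but stayed above all LH transgenic pools, with a difference of -1.58 (SE 0.22, adjusted p 0.00144). Aldh1a1 itself averaged 4061 ± 261 in LH transgenic and 5278 ± 1015 in wild type glands and was not called (-0.36, 95% interval -0.70 to -0.01). Aldh1a3, another retinal dehydrogenase, averaged 317 ± 81.9 in LH transgenic glands, where 1 of 3 pools was above the limit, and 689 ± 94.8 in wild type glands (-0.97, adjusted p 0.0116), and was not called with the muscle covariate (-1.08, adjusted p 0.0632). Aldh1a2 was below the limit on every array.

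Aldh2, the mitochondrial enzyme that oxidises acetaldehyde, was measured by 3 probe sets that gave similar values. The brightest averaged 5727 ± 170 in LH transgenic and 9290 ± 527 in wild type glands, and the differences were -0.69, -0.73 and -0.75 (adjusted p 0.00315, 0.00456 and 0.0131). With the muscle covariate the call was lost for probe sets 96057_at (-0.61, adjusted p 0.0566) and 161997_f_at (-0.73, adjusted p 0.104), the second of which was also not called without wild type pool 3 (adjusted p 0.0578). For each of the 3, all LH transgenic pools lay below all wild type pools. Both tested probe sets of Aldh7a1, an enzyme of lysine breakdown, were lower without a call, at -0.41 (adjusted p 0.0575) and -0.28 (adjusted p 0.207). Aldh3a2 and Aldh9a1 differed by -0.28 and -0.13. Aldh18a1, the proline synthesis enzyme, averaged 663 ± 37.1 in LH transgenic and 437 ± 45.6 in wild type glands without overlap, and narrowly missed the threshold (0.53, adjusted p 0.0545). It was called under 4 of 21 other settings.

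No UDP-glycosyltransferase probe set with 1 gene was above the limit, and the highest signals of Ugt2b5, Ugt2b34 and Ugt8a were 154.3, 67.0 and 56.9. A bright probe set that the annotation shares among 8 genes of UDP-glycosyltransferase family 1 was left out by the rule. It averaged 6722 ± 484 in LH transgenic and 11897 ± 412 in wild type glands (-0.82, adjusted p 0.00152), and cannot be assigned to 1 gene.

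For neighbouring or paired enzymes the difference between their log2 differences was computed per array, in 3 pairs chosen after the values were seen. Gstm2 (93009_at) changed by -1.51 relative to Gstm1 (93543_f_at), Gstt1 by -0.88 relative to Gstt2, and Aldh1a7 by -1.23 relative to Aldh1a1. The second Gstm2 probe set, at -0.055, would set Gstm2 the other way round against the -0.73 of Gstm1. Each pair gave a two-sided exact permutation p of 0.1 (adjusted p 0.1 over the 3 pairs), the smallest that 3 arrays against 3 can give, so the threshold could not be reached.

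Set side by side, the classes had median differences of 0.24 for Cyp (10 probe sets), -0.28 for Gst (18), -0.41 for Aldh (11) and -2.73 for Ces (3), beside 0.02 for all probe sets. The Cyp median was -0.20 with a filter at the 60th percentile of the means. With arrays scaled to the bacterial controls, where the median of all probe sets was -0.62, the medians were -0.40 for Cyp, -0.93 for Gst, -1.09 for Aldh and -3.40 for Ces. The Ces median rests on both probe sets of Ces1d. With only the brightest probe set of each gene, the medians were 0.24 for Cyp (10 genes), -0.50 for Gst (13), -0.38 for Aldh (8) and -1.24 for Ces (2). The order of Gst and Aldh therefore depends on how probe sets are counted. The sum over the genes of a class, with the brightest probe set of each gene, was 25072 to 33037 in LH transgenic and 43051 to 55056 in wild type pools for Cyp. For Gst the sums were 49502 to 63153 and 88219 to 94453 in LH transgenic and wild type pools. They were 17236 to 18373 and 24560.0 to 28054 for Aldh, and 2704 to 3795 and 15492 to 19243 for Ces, in LH transgenic and wild type pools. In these 4 classes the sums of the groups did not overlap, and they follow the few brightest genes of each class. No test between classes was made.

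**Figure D5:**
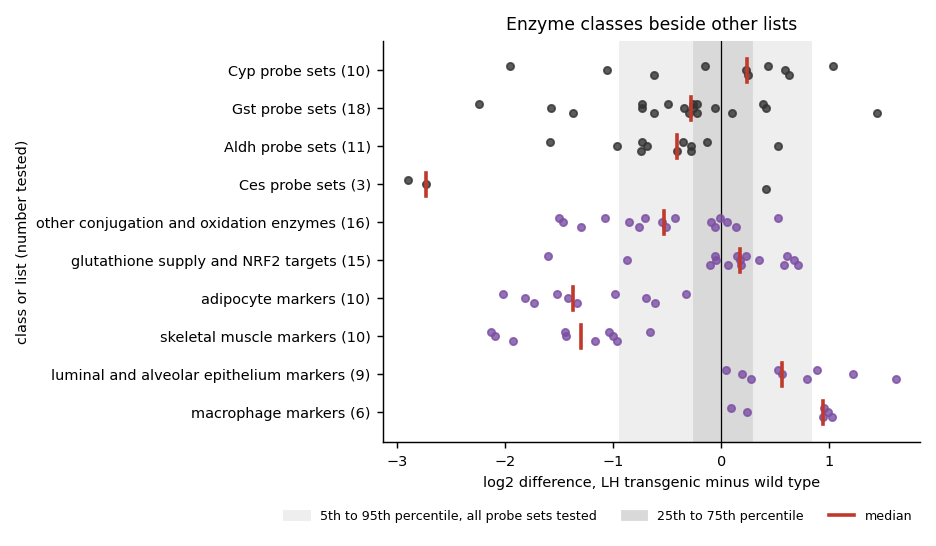
Log2 differences (LH transgenic minus wild type) of tested probe sets of 4 enzyme classes (black) and of genes of other lists (purple), with the median of each in red; grey bands hold the 5th to 95th and the 25th to 75th percentile of single probe sets, over all tested, and are no range for a median. The medians of Gst (-0.28) and Aldh (-0.41) lie nearer 0 than those of fat cell (-1.38) and muscle markers (-1.30). The other lists hold the brightest probe set of each gene, and counted that way the Gst and Aldh medians were -0.50 and -0.38.

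Other enzymes of oxidation and conjugation fell more often than they rose. Of 16 tested, 8 fell and 1 rose (median -0.53), beside 10.8% lower and 10.5% higher over all probe sets. The epoxide hydrolase Ephx2, which hydrolyses fatty acid epoxides made by P450 enzymes, averaged 847 ± 182 in LH transgenic and 2509 ± 155 in wild type glands (-1.50). The sulfotransferase Sult1a1 (-1.47), the aldehyde oxidase Aox1 (-1.30) and the flavin monooxygenase Fmo1 (-1.08) fell too, and the alcohol dehydrogenase Adh7, named as the only increase after its values were seen, rose by 0.52.

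Of 15 tested genes of glutathione supply and of the oxidative stress regulator NRF2, 2 rose and 2 fell. Over all probe sets 10.5% rose and 10.8% fell. Gclm, the regulatory subunit of the enzyme that limits glutathione synthesis, averaged 2299 ± 97.9 in LH transgenic and 1375 ± 67.7 in wild type glands (0.71, adjusted p 0.00456). Txnrd1, thioredoxin reductase, rose by 0.58. Mgst3, a microsomal glutathione transferase of another protein family, averaged 2717 ± 705 in LH transgenic and 8258 ± 740 in wild type glands (-1.61, adjusted p 0.000769), and catalase (Cat) fell by 0.87.

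Of 12 tested electron partners and receptors of P450 genes, 4 fell, where 10.8% of all probe sets fell and 10.5% rose. These were the fat cell regulators Pparg (-1.52) and Cebpa (-0.98), cytochrome b5 Cyb5a (-0.76), and the oxysterol receptor Nr1h3 (-0.63). Pparg and Cebpa are also in the fat cell list. Of 6 tested retinoid genes, the carrier Rbp4 (-2.05) and the retinal reductase Dhrs3 (-1.48) fell, and the retinoic acid binding protein Crabp2 rose by 1.09. Of 12 steroid conversion genes, 10 were on the array and 2 were tested. Both fell, the glucocorticoid-activating enzyme Hsd11b1 (-1.69) and the peroxisomal enzyme Hsd17b4 (-0.48). The others on the array lay below the limit. Of these, Hsd3b1, Hsd17b1, Hsd17b2 and Hsd17b7, named after their values were seen, had all LH transgenic signals above all wild type signals. In the rest the groups overlapped.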

How the data were processed

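Signals were deposited by the authors as intensities on a linear scale, from Affymetrix MG_U74Av2 arrays with MAS 5 per the submitters' processing notes. Detection calls were not given in the sources used here. The arrays shared 1 scaling (trimmed mean 1501 on each). Probe sets were named by the platform annotation, and the symbols of all 72 member genes were found in RefSeq. The members and gene lists were chosen with earlier results of these data known. Replicates are pools numbered in accession order.

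After control probe sets were left out, probe sets with a mean of at least 336.0 were tested with limma 3.58.1 (R 4.3.3; lmFit and eBayes with a trend) on log2(signal + 80.0), 3 arrays against 3, with Benjamini-Hochberg adjustment at 0.05. The number of arrays limits the precision. On simulated data with the 7453 probe sets and independent normal noise, 50 probe sets were changed at each of 1.5, 2, 3 and 4-fold. Of these, 22% of 1.5-fold and 72% of 2-fold changes were recovered. The simulation gave 145 calls, against 1586 in the data. Benjamini-Hochberg adjustment depends on the share of changed probe sets, so these rates do not carry over directly.

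Every called member was named, with values on each array for the largest changes, then the 3 brightest uncalled members of each class. Of each pathway list up to 4 called genes were named by size, and of each marker list the 3 brightest. The other tested members, and genes so marked, were chosen after their values were seen. Alternatives covered scaling, pseudocount, filter, variance model, covariates, probe set summary and left-out arrays.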

Additional observations from a re-analysis of the deposited data

How the results depend on the processing

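Over 22 alternatives and 42 tested members, 883 values were recomputed, of which 812 kept direction and side of the threshold, 20 lost the call and 35 gained one. The sign turned for 1 called value and for 15 values that were called on neither side, 9 of these under scaling to the bacterial hybridisation controls. Ces1d (both probe sets), Gstm2 (93009_at), Aldh1a7, Gstz1, Gstt1, Cyp4b1 (103353_f_at) and the 96058_s_at probe set of Aldh2 were called under every alternative that gave them a value. That scaling, with a median of -0.62 over all probe sets, turned Cyp1b1 to -0.055 (adjusted p 0.853 by limma) and gave 30 called members, 15 of them Gst and 10 Aldh, while 53.7% of all probe sets were called. With the muscle level as a covariate 2 Cyp (Cyp4b1 and, newly, Cyp2f2), 6 Gst, 2 Aldh and 2 Ces probe sets were called. Over all probe sets 10.6% were called in that fit. By marker sum every LH transgenic pool lay under every wild type pool, so the muscle level is not independent of the group. The 6 Gst were all lower, and Gstk1 (-1.23, adjusted p 0.0454) and Gsto1 (-0.68, adjusted p 0.0488) were newly called. Median differences were then -0.48 for all members, 0.24 for Cyp, -0.59 for Gst, -0.56 for Aldh and -2.62 for Ces. With 1 probe set per gene 12 of 33 members were called (4 Cyp, 4 Gst, 3 Aldh and 1 Ces), beside 22.4% of all genes tested. With the mean of a gene's probe sets 12 of 33 were called (4 Cyp, 3 Gst, 4 Aldh and 1 Ces), beside 22.7%. Fewer units are tested in these fits. Leaving out 1 array at a time gave 14 to 17 called members, 2 to 4 Cyp, 4 to 7 Gst, 4 to 6 Aldh and 2 Ces. Over all probe sets 12.6% to 22% were called in these fits. The Cyp count of 2 came from leaving out pool 1 of either group. The Gstm5 increase was not called when wild type pool 3 was left out (1.23, adjusted p 0.0529) or with the muscle covariate (1.59, adjusted p 0.0809). Gstm1 was not called as the mean of its probe sets (-0.17, adjusted p 0.359). Beyond the construction stated, the cause was not tested. No paired analysis was possible because no number in the labels is shared by an LH transgenic and a wild type pool. Low signal left 53 of 95 members without a test in the main fit. With no filter on dim probe sets 16 of the 95 were called, 3 higher and 13 lower, where 10.8% of all probe sets were called.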
